A study of Mus musculus with 141 samples.

Results

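The class II phosphoinositide 3-kinases are represented in the mouse by 3 genes, *Pik3c2a*, *Pik3c2b* and *Pik3c2g*, and all 3 were found by gene symbol among the 24423 genes of every file. Their RNA levels were followed through the Collaborative Cross (CC) in 3 tissues, namely liver, lung and kidney, of 47 strains. The CC consists of recombinant inbred mouse lines that descend from common founders. Every strain contributed 1 adult male mouse aged 8 to 12 weeks and 1 library per tissue, giving 141 libraries in 3 groups of 47 that are paired by mouse. All mice had spent 6 hours on each weekday over 2 weeks in mesh chambers supplied with clean air, so no group differs in treatment. With 1 mouse per strain, variation between strains includes variation between individual mice, and these cannot be told apart.

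Class II enzymes phosphorylate the inositol ring of membrane lipids at the 3 position and mainly make phosphatidylinositol 3-phosphate and phosphatidylinositol 3,4-bisphosphate. They work without the regulatory subunits that class I enzymes need and act in clathrin-mediated endocytosis and in the sorting of endosomes. *Pik3c2a* encodes the broadly expressed C2-alpha enzyme, which binds clathrin and also acts at primary cilia. *Pik3c2b* encodes C2-beta, known for roles in growth factor signalling and in the control of mTORC1 at lysosomes. *Pik3c2g* encodes C2-gamma, which has a narrow tissue distribution centred on liver and takes part in the endosomal activation of Akt2 downstream of insulin.

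On the NCBIM37 (mm9) assembly used for the files, *Pik3c2a* spans chromosome 7 from 123480790 to 123586972 on the reverse strand, between *Rps13* and *Nucb2*. *Pik3c2b* spans chromosome 1 from 134942244 to 135005264 on the forward strand, between *Mdm4* and *Ppp1r15b*. *Pik3c2g*, the longest of the genes at 346056 bases, spans chromosome 6 from 139570409 to 139916464 on the forward strand, between *Rergl* and *Plcz1*. In the GENCODE annotation of that assembly, no exon of another gene overlapped theirs. Of the 50-base windows in their GENCODE exons, 98.7% (*Pik3c2a*), 95.8% (*Pik3c2b*) and 100% (*Pik3c2g*) occurred once in the genome. The longest *Pik3c2g* transcript of that annotation has 4398 bases, against up to 6040 bases in the transcripts that were quantified. Part of the quantified *Pik3c2g* sequence was therefore not checked. The files name 1 RefSeq transcript for *Pik3c2a* and for *Pik3c2b*, and 2 for *Pik3c2g*.

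The promoter windows below run from 250 bases before to 50 bases after each RefSeq transcription start on GRCm38.p6 and are shown because *Pik3c2g* has a pair of starts and differs from its paralogs in base composition. Capitals mark matches on either strand, and matches that overlap run together. The motif TATAAA is known as the TATA box. The motif GGGCGG is known as the GC box. The motif CCAAT carries the name of its letters. The motif GTTAAT is a half-site of the factor HNF1.
Pik3c2a at chr7:116443409-116443708 (-): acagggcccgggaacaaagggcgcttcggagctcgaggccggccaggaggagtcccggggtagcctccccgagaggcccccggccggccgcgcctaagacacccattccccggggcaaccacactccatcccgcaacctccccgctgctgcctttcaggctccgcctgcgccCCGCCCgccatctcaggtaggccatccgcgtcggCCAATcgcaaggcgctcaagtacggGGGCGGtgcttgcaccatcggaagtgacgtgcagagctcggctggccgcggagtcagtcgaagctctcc
Pik3c2b at chr1:133045762-133046061 (+): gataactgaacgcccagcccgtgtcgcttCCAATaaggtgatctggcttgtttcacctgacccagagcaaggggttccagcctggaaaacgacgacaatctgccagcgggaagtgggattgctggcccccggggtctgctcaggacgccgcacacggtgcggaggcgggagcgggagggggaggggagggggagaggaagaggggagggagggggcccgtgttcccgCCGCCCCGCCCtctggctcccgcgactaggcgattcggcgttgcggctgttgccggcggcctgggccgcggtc
Pik3c2g first start at chr6:139613822-139614121 (+): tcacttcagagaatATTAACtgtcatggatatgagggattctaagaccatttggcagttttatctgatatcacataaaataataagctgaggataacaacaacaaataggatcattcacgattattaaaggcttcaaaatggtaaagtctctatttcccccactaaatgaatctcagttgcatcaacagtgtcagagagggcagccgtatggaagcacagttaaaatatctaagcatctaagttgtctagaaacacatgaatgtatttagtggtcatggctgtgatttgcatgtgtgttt
Pik3c2g second start at chr6:139841195-139841494 (+): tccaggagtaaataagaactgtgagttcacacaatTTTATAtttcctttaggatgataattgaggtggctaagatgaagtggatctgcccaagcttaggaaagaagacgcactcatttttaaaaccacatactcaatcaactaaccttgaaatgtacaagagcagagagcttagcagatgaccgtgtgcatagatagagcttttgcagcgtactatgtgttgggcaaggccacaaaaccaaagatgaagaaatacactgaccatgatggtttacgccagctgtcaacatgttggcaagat

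The GC content was 70.3% for *Pik3c2a* and 68.7% for *Pik3c2b*, with 31 and 27 CpG dinucleotides. For *Pik3c2g* it was 36% at the first start and 40.7% at the second, with 2 and 4 CpG dinucleotides. Among 32851 promoter windows of all genes the median GC content was 52.7% and the median number of CpG dinucleotides was 7. The windows of *Pik3c2a* and *Pik3c2b* each held 2 GC boxes and 1 CCAAT, motifs found in 35.7% and 37.4% of all windows. The first *Pik3c2g* window held 1 GTTAAT (7.1% of all windows) and the second 1 TATAAA (13.6%). Both *Pik3c2g* windows had 1 exact match in NCBIM37. There the first start lies 7.8 kb before the annotated gene and the second 219.6 kb inside it, in an intron, so the starts are 227.4 kb apart. A match is a run of letters and no evidence of binding.

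Total expected counts, the estimates of read number per gene made by RSEM, ranged from 1738046 to 42158453 per library, with medians of 10423382 in liver, 9338124 in lung and 8245850 in kidney. Strains CC010, CC036, CC039 and CC045 had a library below 3000000 counts. The tissue labels were checked against marker genes. The summed TPM (a share of the library's transcripts, adjusted for transcript length) of 5 hepatocyte genes, among them *Alb* and *Ttr*, was at least 36170 in liver and at most 2574 in lung and 7942 in kidney. That of 5 lung epithelial genes, among them *Sftpc*, was at least 18620 in lung and at most 370.5 elsewhere, although *Cldn18* of that list stood at 0 in every library. That of 5 proximal tubule genes, among them *Slc34a1*, was at least 29870 in kidney and at most 1648 elsewhere. Lung libraries also held heart muscle transcripts, with 106.8 to 2246 TPM summed over *Myh6*, *Myl7* and *Actc1*, against at most 27.5 in liver and 11.65 in kidney. Tissues are mixtures of cells, and a lower level from fewer cells of a type cannot be told apart from less RNA per cell.

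*Pik3c2a* was the class II gene with the highest TPM in every tissue of every strain. In liver its TPM ran from 5.52 (CC033) over a median of 22.17 to 46.01 (CC024), in lung from 21.12 (CC015) over 67.56 to 99.91 (CC053), and in kidney from 29.03 (CC027) over 66.6 to 121.81 (CC049). Liver values lay mostly below those of the other tissues, with overlap, and the ranges of lung and kidney overlapped over most of their length. *Pik3c2b* was a lung gene by this measure. Its TPM was 0.49 to 3.8 in liver (median 1.95), 2.69 to 25.22 in lung (median 14.24) and 1.06 to 4.37 in kidney (median 1.96). Only the lowest lung library, from CC015, fell inside the range of the other tissues. *Pik3c2g* ran from 1.73 (CC033) to 15.02 (CC003) TPM in liver, with a median of 7.71, and from 0.58 (CC011) to 6.56 (CC046) in lung, with a median of 2.05. In kidney it ran from 0.1 (CC015) to 35.95 (CC062), with a median of 9.89, and varied more in relative terms than any other isoform in any tissue. The coefficient of variation of TPM was 94.3% for kidney *Pik3c2g* and between 32.7% and 53.4% for the other 8 combinations of gene and tissue. These ranges and spreads depend on the scaling. On CPM (read counts relative to a scaled library size), the relative spread was smaller for every combination except lung *Pik3c2g*. Lung *Pik3c2a* had a mean of 63.16 TPM (SD 20.78) and of 110.0 CPM (SD 16.53). For lung *Pik3c2g* these were 2.22 TPM (SD 1.18) and 3.05 CPM (SD 1.71). The CC015 lung, lowest for *Pik3c2a* on TPM, was the highest on CPM (143.1).

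**Figure D1:**
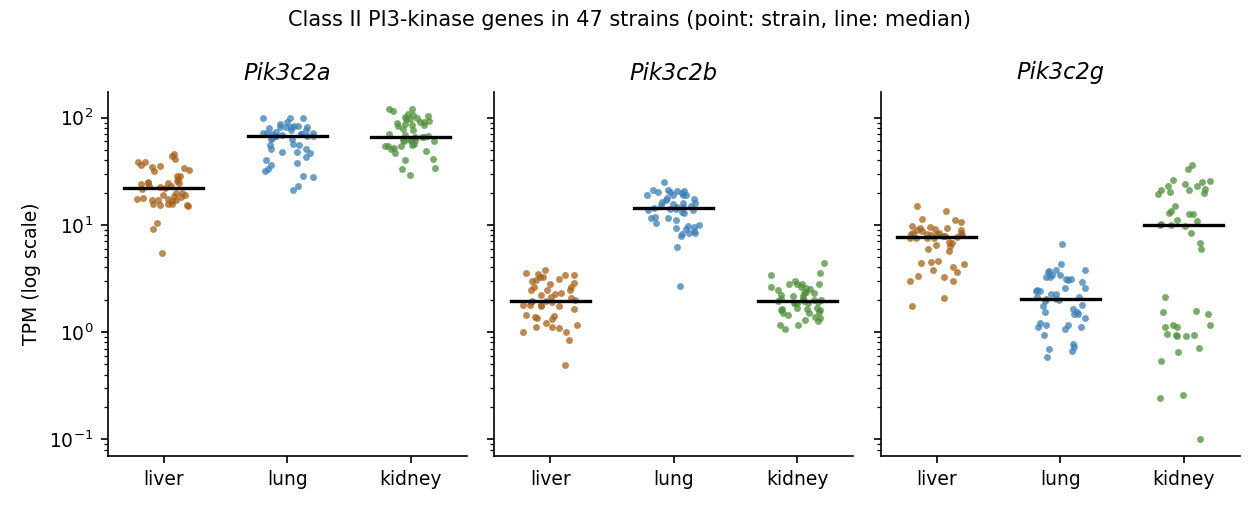
TPM of *Pik3c2a*, *Pik3c2b* and *Pik3c2g* on a log scale in liver, lung and kidney, with 1 point per strain (47 per tissue), random horizontal offsets and a line at the median. *Pik3c2b* is highest in lung (median 14.24), and the kidney values of *Pik3c2g* split into a group up to 2.10 and a group from 5.90 TPM.

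Because TPM is adjusted for length, it allows isoforms to be compared within a library. Averaged over strains, *Pik3c2a* made up 70.8% ± 7.96 (SD, n = 47) of the class II TPM of liver libraries, 78.8% ± 4.69 of lung and 85.3% ± 9.90 of kidney libraries. *Pik3c2g* came next in liver with 22.4% ± 7.31 and was last in lung with 2.94% ± 1.62. In kidney its share was 12.1% ± 9.95 and ran from 0.175% to 29.9%. *Pik3c2b* held 6.77% ± 2.90 in liver, 18.3% ± 4.78 in lung and 2.59% ± 0.92 in kidney.

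The order within a tissue was tested on log2 ratios of TPM with a pseudocount of 0.1, by a two-sided paired permutation test that flips signs within strains (100000 permutations, smallest possible p 1e-05). *Pik3c2a* exceeded both paralogs in 47 of 47 strains in each tissue (p = 1e-05 for each of 6 comparisons). Its geometric mean ratio to *Pik3c2b* was 4.41 in lung, 10.8 in liver and 33.1 in kidney. *Pik3c2g* exceeded *Pik3c2b* in 47 of 47 livers, while *Pik3c2b* exceeded *Pik3c2g* in 47 of 47 lungs (permutation p = 1e-05 for each). In kidney the order was not uniform, since *Pik3c2b* was the higher in 17 strains and *Pik3c2g* in 30. The mean log2 ratio of *Pik3c2b* to *Pik3c2g* was -1.271 there (SD 2.185, permutation p = 0.00029). The ratio ran from -3.94 to 2.84, so the p-value concerns the mean and not an order shared by strains.

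A limit on the level of *Pik3c2g* may come from its pair of transcripts. The authors used uniquely aligned reads, and genes with more than 1 named transcript had lower values throughout these files. In liver the median TPM exceeded 1 for 43.35% of 18311 genes with 1 transcript and for 20.61% of 3401 genes with 2, and in kidney for 50.83% and 27.84%. *Akt1* and *Pdpk1*, with 3 named transcripts each, had a median of 0 TPM in liver and kidney. Whether the pair of transcripts lowers *Pik3c2g* relative to its paralogs, or acts differently between libraries, was not tested.

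Tissues were compared with limma-voom on counts after TMM scaling (trimmed mean of M-values), with strain and tissue in the model and Benjamini-Hochberg adjustment (q) over 12127 genes. A gene was called where q was at most 0.1 and the log2 fold change was 1 or more in size. Of all genes tested, 23.9% were called higher in liver and 31% higher in lung in that comparison, 15.6% higher in liver and 20.8% higher in kidney between liver and kidney, and 25.5% higher in lung and 20.6% higher in kidney between lung and kidney. Counting either direction, liver differed from lung in 55% of genes and from kidney in 36.4%, and lung differed from kidney in 46.1%. The q threshold alone was passed by 93.5%, 87.9% and 90.8% of genes in these pairs. The members gave 4 calls in 9 comparisons and passed q alone in 8, and shares of this size in all genes mean that neither sets a gene apart.

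Kidney held the most *Pik3c2a* on this scale. Mean expression was 193 ± 40.3 CPM (read counts relative to the TMM-scaled library size, SD, n = 47) in kidney, 115.5 ± 35.1 in liver and 110.0 ± 16.5 in lung. Kidney exceeded liver and lung in 47 of 47 strains. The log2 difference was -0.68 for liver minus kidney (standard error 0.05, limma-voom q = 1.57e-21) and -0.74 for lung minus kidney (standard error 0.05, limma-voom q = 5.71e-24), so both passed q but not the fold threshold. Liver and lung were within the spread (log2 difference 0.06, limma-voom q = 0.271), with liver higher in 23 of 47 strains. This last comparison depended on the scaling. With DESeq2 size factors the difference was -0.18 (limma-voom q = 0.00108) and by the DESeq2 Wald test -0.20 (q = 0.000244), where the median over all tested genes was -0.30 with those size factors. On log2(TPM + 1) the liver minus lung difference was -1.39 (limma q = 1.02e-23), and on total counts without TMM it was -1.32 (limma-voom q = 6.34e-14). Under those scalings the median over all tested genes moved to -1.21 and -1.44, from -0.06 with TMM. The log2(TPM + 1) difference for liver minus kidney was -1.61 against a median of -0.72, and that for lung minus kidney was -0.22 against 0.47 (limma q = 0.0476).

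*Pik3c2b* was called higher in lung against both other tissues. It had 24.6 ± 4.46 CPM in lung, compared with 10.25 ± 3.64 in liver and 5.54 ± 1.44 in kidney. The log2 difference was -1.32 for liver minus lung (standard error 0.08, limma-voom q = 8.6e-31, lung higher in 46 of 47 strains) and 2.26 for lung minus kidney (standard error 0.08, limma-voom q = 4.58e-49, lung higher in 47 of 47). All 11 alternatives to each of these fits kept the call, with log2 differences from -2.73 to -1.28 and from 2.20 to 2.69. Liver exceeded kidney by 0.94 on the log2 scale (limma-voom q = 1.17e-20, 40 of 47 strains), below the fold threshold. On total counts without TMM that difference was -0.02 (limma-voom q = 0.898), against a median of -0.95 over all genes.

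*Pik3c2g* was called lower in lung than in liver and kidney. It had 26.3 ± 8.47 CPM in liver, 21.4 ± 18.5 in kidney and 3.05 ± 1.71 in lung. Liver exceeded lung in 47 of 47 strains (log2 difference 3.35, standard error 0.22, limma-voom q = 1.35e-27), the largest of the 9 differences. Kidney exceeded lung in 38 of 47 strains (-2.42 for lung minus kidney, standard error 0.22, limma-voom q = 8.61e-19). Liver and kidney differed by 0.93 (standard error 0.21, limma-voom q = 3.26e-05), below the fold threshold, and without the strain block by 1.66 (limma-voom q = 3.4e-08), past it. On log2(TPM + 1) the difference was 0.13 (limma q = 0.532), and that for liver minus lung was 1.34 (limma q = 2.3e-09). The average for liver and kidney describes few strains, since liver was the higher tissue in 23 strains and kidney in 24, and the log2 ratio of CPM, with a pseudocount of 0.1, ran from -1.81 to 5.79.

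**Figure D2:**
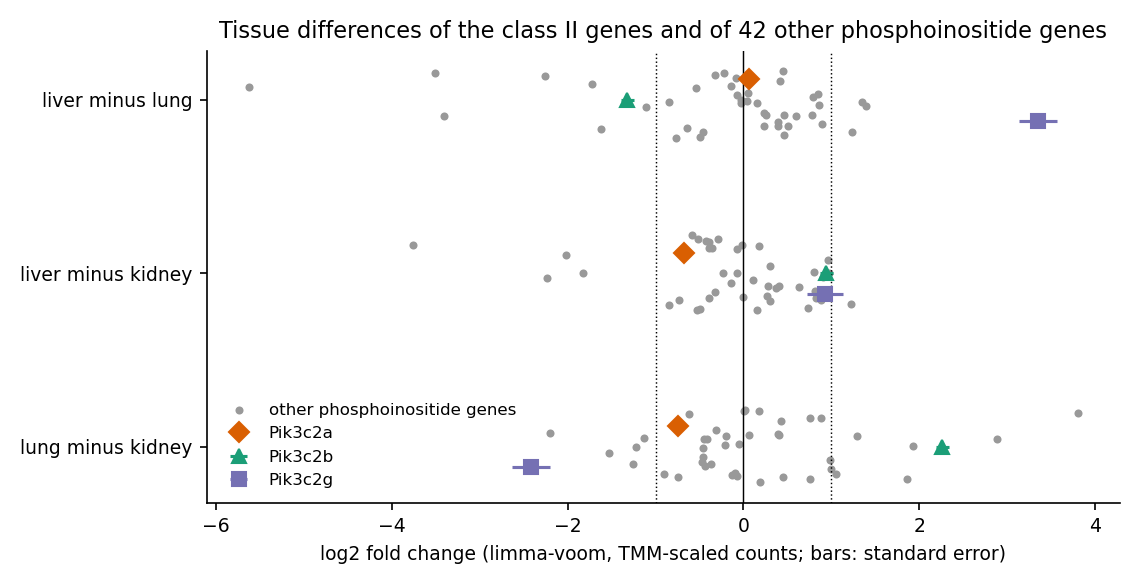
Log2 fold changes from limma-voom on TMM-scaled counts for the 3 tissue pairs, with class II genes as coloured symbols (bars: standard error) and 42 other phosphoinositide genes as grey points; vertical offsets only separate the points and dotted lines mark a log2 fold change of 1 either way. *Pik3c2g* stands at 3.35 for liver minus lung and -2.42 for lung minus kidney, *Pik3c2b* at 2.26 for lung minus kidney, and *Pik3c2a* lies between the dotted lines in each pair.

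The spread across strains was described as the share of the variance of log2(TPM + 1) of TMM-normalized values that lies between the best pair of clusters, and clusters were called separate from a share of 80%. Kidney *Pik3c2g* had a share of 93.0%, above 99.88% of the 10451 kidney genes that passed an expression filter (TPM over 1 in more than 50% of libraries). That filter also left out genes whose best pair of clusters on TMM-normalized TPM held a cluster of 1 strain. Separate clusters were found for 1.55% of kidney genes, 1.53% of lung genes and 1.47% of liver genes. The other 8 combinations of isoform and tissue had shares between 48.2% (*Pik3c2a* in lung) and 75.2% (*Pik3c2a* in liver), and none was separate.

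In kidney, 19 strains had 0.1 to 2.10 TPM of *Pik3c2g*, on 2 to 36 counts, and 28 had 5.90 to 35.95 TPM, on 50 to 764 counts. On TMM-normalized values the gap ran from 1.90 to 8.08. The lowest kidneys were those of CC015 (0.1 TPM, 2 counts), CC068 (0.24, 10 counts) and CC046 (0.26, 10 counts), and the highest were those of CC062 (35.95) and CC049 (32.98). Only the CC015 value rested on 3 counts or fewer, a number taken as the smallest a library can resolve. The libraries of the lower cluster had a median of 10238915 total counts against 7512129 in the upper cluster. The kidney TPM of *Pik3c2g* and the total count had a Spearman's rho of -0.376 over 47 strains. Summed proximal tubule markers ran from 29870 to 120700 TPM in the lower and from 30020 to 164300 in the upper cluster, and none of the 12 marker lists stood apart between them in range. *Pik3c2a* and *Pik3c2b*, with shares of 69.1% and 61.7%, did not form separate clusters in the same kidneys.

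Strains with a low kidney level of *Pik3c2g* ranged widely in the other tissues, from 1.73 to 13.54 TPM in liver and from 0.58 to 6.56 in lung. CC033 of the lower kidney cluster had the lowest liver TPM of all strains, on 12 counts, and CC011 and CC068, also of that cluster, had the lowest lung TPM. On CPM the lowest liver was that of CC021 (6.63), a strain of the upper kidney cluster, and the CC033 liver had 18.66. CC015 had 4.36 TPM in liver and 1.79 in lung, CC068 had 8.23 and 0.67, and CC046 had 7.54 in liver and 6.56 in lung, the highest lung TPM of all strains. On CPM the lung of CC015 was the highest instead, at 8.80, on 23 counts. On CPM, liver exceeded kidney in 19 of 19 strains of the lower kidney cluster, by 4.81 to 67.4-fold, and in 4 of 28 strains of the upper. On TPM it did so in 19 and 0 strains. As the clusters were formed on the kidney values, these counts are descriptive. The plot of *Pik3c2g* by strain shows the step in kidney beside unbroken liver and lung values.

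**Figure D3:**
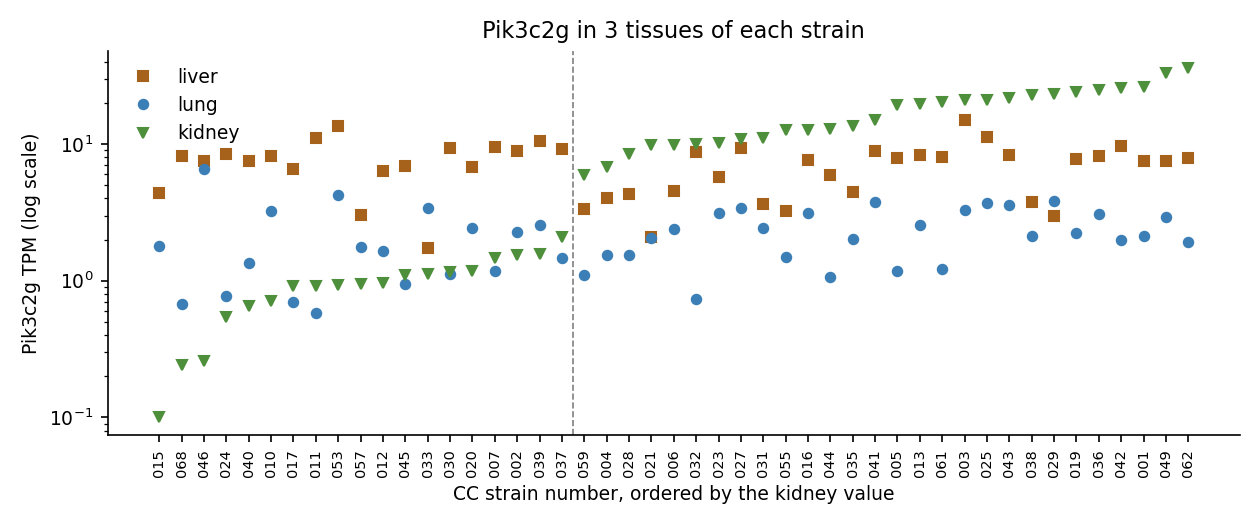
*Pik3c2g* TPM on a log scale in liver (squares), lung (circles) and kidney (triangles) of each of the 47 strains, ordered by the kidney value; the dashed line parts the 19 strains up to 2.10 TPM in kidney from the 28 strains from 5.90 TPM. Liver values of the strains left of the line run from 1.73 to 13.54 TPM and show no matching step.

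The correlation of each isoform between tissues was computed over strains on rank inverse normal values of TMM-normalized TPM, with permutation p-values (100000) and q over all genes that passed the filter in both tissues. With the pairs of isoforms given further on, 18 relations were computed, and those with kidney *Pik3c2g* are given within each cluster, since a pooled value would rest on the gap. *Pik3c2a* levels in liver and kidney rose together (r = 0.737, permutation p = 1e-05; rho = 0.734, permutation p = 1e-05; q = 8.67e-07 over 7975 genes). Of those genes 22.4% had a positive correlation at q ≤ 0.1, the median r was 0.182, and 99.59% had a lower r than *Pik3c2a*. Without the 2 strains farthest from the liver median r was 0.713. Lung *Pik3c2a* was not resolved against liver (r = -0.08, permutation p = 0.577; rho = -0.07, permutation p = 0.639; q = 0.797) or kidney (r = 0.188, permutation p = 0.207; rho = 0.222, permutation p = 0.133; q = 0.442). *Pik3c2b* gave r between -0.09 and -0.04 for the 3 tissue pairs (q from 0.711 to 0.91), and *Pik3c2g* gave 0.02 for liver and lung (q = 0.948). Positive correlations at q ≤ 0.1 were found for 12.3% of genes between liver and lung and for 16.4% between lung and kidney.

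Within the upper kidney cluster, *Pik3c2g* in liver and kidney rose together (n = 28, r = 0.605, permutation p = 0.00065; rho = 0.700, permutation p = 5e-05; q = 0.0217 over 7975 genes, 0.625 without the 2 farthest strains). On TPM without TMM, r was 0.366 (q = 0.612) and the call was lost. The lower cluster gave 0.06 (n = 19, permutation p = 0.803; rho = 0.08, permutation p = 0.758), on kidney values that rest on 2 to 36 counts. Lung and kidney gave 0.375 in the upper cluster (permutation p = 0.0503; rho = 0.429, permutation p = 0.0241; q = 0.286) and -0.18 in the lower (permutation p = 0.464; rho = -0.12, permutation p = 0.625). The difference between the clusters was not tested.

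**Figure D4:**
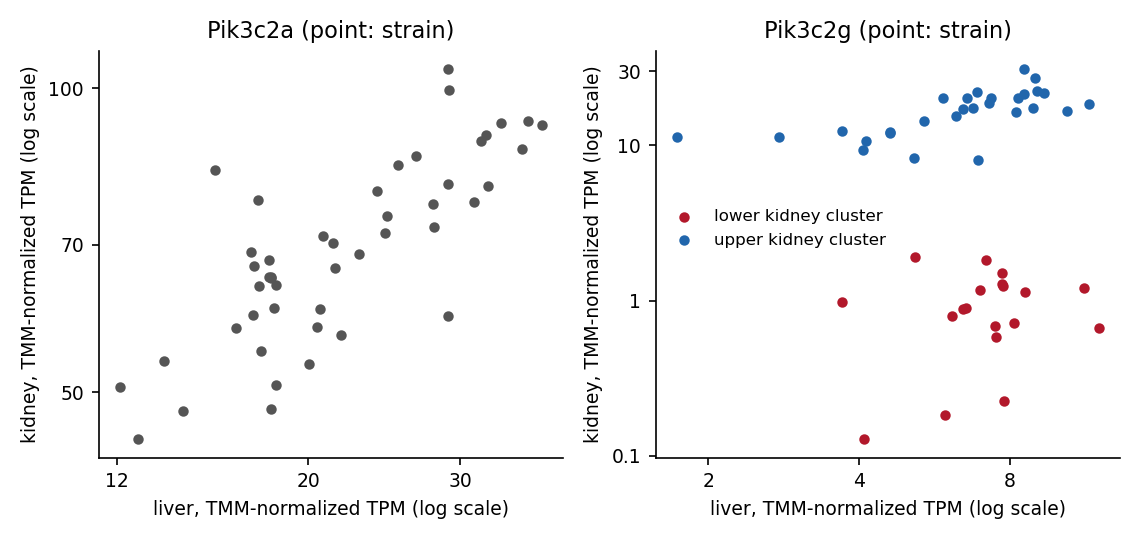
TMM-normalized TPM in liver (x) and kidney (y) on log scales, 1 point per strain, for *Pik3c2a* (left, 47 strains, r = 0.737 on rank inverse normal values) and *Pik3c2g* (right). *Pik3c2g* points form a lower kidney cluster of 19 strains and an upper one of 28, and the upper points rise from left to right (r = 0.605).

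A further source of information on the strains is the transcript length in the files. Reads were aligned to a transcriptome made for each strain, so that insertions and deletions that a strain carries in a transcript change the listed length. The length is a property of the strain's reference and is not measured from its RNA. It is not a genotype, since strains with the same length can differ in other ways. The comparison by length was chosen after the values had been seen. *Pik3c2a* had 4 lengths from 8017 to 8043 bases and *Pik3c2b* 7 from 7919 to 7943, and each strain showed the same length in its 3 libraries. For *Pik3c2g* the listed length is a mean weighted over its pair of transcripts. The longest of a strain's 3 listed lengths was a whole number for 42 strains, 6025, 6035, 6037, 6038 or 6040 bases, and 5 strains could not be placed.

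Kidney levels of *Pik3c2g* differed between lengths without following the order of length. All 11 strains with 6040 bases lay in the upper range, from 10.21 to 32.98 TPM (median 19.7). The 3 strains with 6025 bases had 0.1 to 0.71 TPM, the 3 with 6035 bases 0.93 to 1.17, and the 5 with 6038 bases 0.24 to 2.10. The 20 strains with 6037 bases were divided, from 0.54 to 35.95 TPM, with 12 above 5 TPM. The 5 strains that could not be placed had 8.4 to 26.33 TPM and lay in the upper cluster. Lengths other than whole numbers were more frequent in kidney libraries with more *Pik3c2g* counts. The 42 strains that were placed were therefore not chosen independently of the level. Differences between lengths held 47.5% of the variance of the rank inverse normal kidney values, adjusted for the number of lengths (n = 42, permutation p = 1e-05, the smallest 100000 permutations can give). Of 6671 kidney genes with at least 2 lengths, 97.44% had a lower share, and their median was 4.61%. With only the lengths held by at least 5 strains, which leaves out 6025 and 6035 bases, the share was 29.2% (permutation p = 0.00112). In lung the share was 23.3% (permutation p = 0.00728), with medians from 1.45 TPM at 6037 to 3.24 at 6025 bases, and it was 10.4% (permutation p = 0.0907) without the strains that have a library under 3000000 counts, 12.6% (permutation p = 0.0399) with lengths held by at least 5 strains and 13.95% (permutation p = 0.0476) on TPM without TMM. In liver it was 11.2% (permutation p = 0.076). The 3 strains with 6025 bases had the lowest median in kidney, 0.26 TPM, and the highest in lung.

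For *Pik3c2a*, the length of 8042 bases went with higher levels in liver and kidney. Its 19 strains had 18.08 to 46.01 TPM in liver (median 32.84) and 52.2 to 121.81 in kidney (median 90.58). The 15 strains with 8041 bases had 15.12 to 25.19 in liver (median 18.64) and a median of 62.1 in kidney. The 10 with 8017 bases had medians of 17.53 and 63.44, and the 3 with 8043 bases 9.09 and 62.17. Ranges overlapped between lengths, except those of 8042 and 8043 bases in liver. Levels by length are TPM without TMM, whereas the shares rest on TMM-normalized TPM. On TMM-normalized TPM the 3 livers with 8043 bases had 16.49 to 17.99. That lies inside the 12.09 to 29.02 of the 10 livers with 8017 bases, so the lower 8043 median depends on the scaling. The share of the variance between lengths was 54.3% in liver and 60.6% in kidney (permutation p = 1e-05 for each, above 99.2% and 99.39% of genes). On TPM without TMM the kidney share was 18.05% (permutation p = 0.0087). In lung it was 22.5% (permutation p = 0.00257; 13.4% on log2 CPM, permutation p = 0.0354), and there the 8042 median of 64.44 TPM lay below the 72.3 of the 8041 strains. The correlation of *Pik3c2a* between liver and kidney was also computed within lengths. It was 0.678 over the 19 strains with 8042 bases (permutation p = 0.00148, q = 0.00444 over 3 lengths; rho = 0.718, permutation p = 0.00079; 0.641 without the 2 farthest). It was 0.356 over the 15 with 8041 bases (permutation p = 0.193, q = 0.193; rho = 0.207, permutation p = 0.455; -0.01 without the 2 farthest). It was 0.643 over the 10 with 8017 bases (permutation p = 0.0447, q = 0.067; rho = 0.685, permutation p = 0.0337; 0.601 without the 2 farthest).

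*Pik3c2b* gave a share of 39.03% in liver (n = 46, permutation p = 0.00018), where the 4 strains with 7930 bases had 1.01 to 1.75 TPM and the 4 with 7937 bases 2.44 to 3.53. On TPM without TMM this share was 13.6% (permutation p = 0.0527), and with lengths held by at least 5 strains, which leaves these out, it was 17.6% (permutation p = 0.0194). In lung and kidney the adjusted share was below 0 (permutation p = 0.595 and 0.997). The permutation p-values of the 9 shares of the isoforms were not adjusted for their number.

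**Figure D5:**
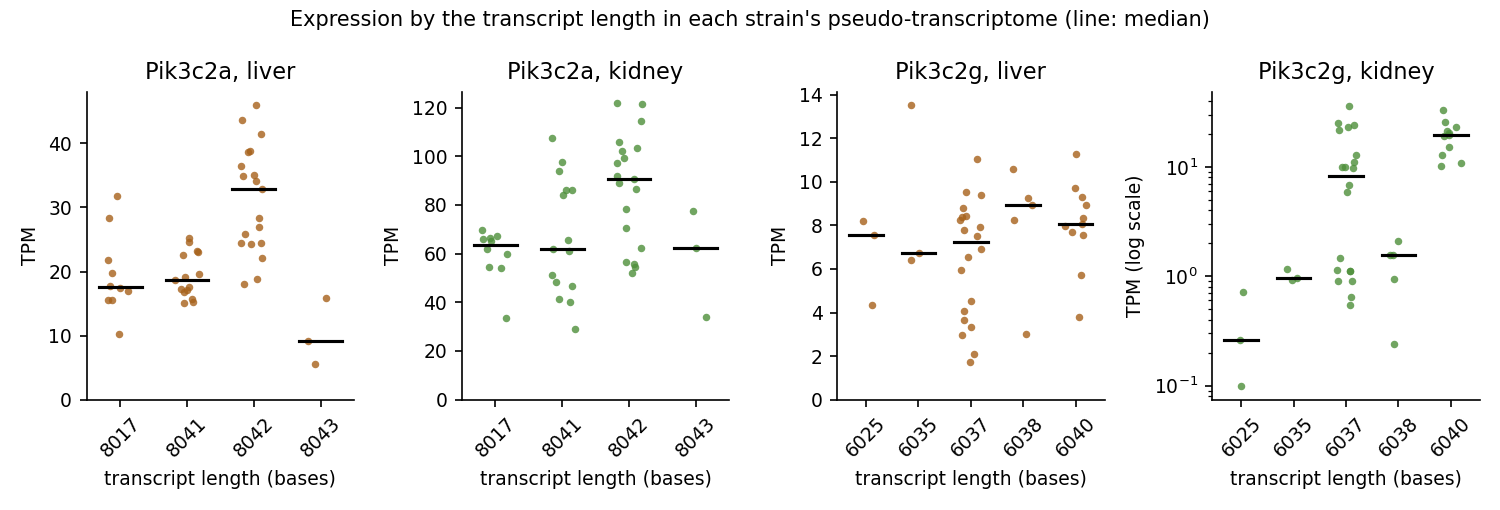
TPM by the transcript length (bases) that each strain's own transcriptome gives, for *Pik3c2a* and *Pik3c2g* in liver and kidney, with 1 point per strain, random horizontal offsets and a line at the median; the last panel has a log scale. The 8042-base strains have the highest *Pik3c2a* medians (32.84 in liver, 90.58 in kidney), and the 11 strains with 6040 bases lie at or above 10.21 TPM of *Pik3c2g* in kidney.

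The use of the pair of *Pik3c2g* transcripts was examined through the same column. A whole-number length means that 1 transcript received the reads, and other values mean that both did. Both received reads in 26 of 47 liver, 13 of 47 lung and 21 of 47 kidney libraries. Lengths between 5725.56 and 6040 bases were listed, with tissue medians of 6024 in liver, 6037 in lung and 6029 in kidney, so the longer transcript took most of the weight. Mixed lengths went with depth. In kidney they occurred in 0 of 14 libraries with up to 30 *Pik3c2g* counts and in 12 of 13 with over 300. In the lower kidney cluster 1 of 19 libraries was mixed, against 20 of 28 in the upper, where counts were higher. All 3 tissues were mixed in 5 strains and none in 11.

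Within a tissue, the isoforms were compared with each other over strains. In lung, *Pik3c2a* and *Pik3c2b* varied in opposite directions (r = -0.54, permutation p = 0.00012; rho = -0.55, permutation p = 0.00012; q = 0.00101 over 11993 genes; -0.47 without the 2 farthest strains). *Pik3c2b* and *Pik3c2g* did so more weakly in lung (r = -0.40, permutation p = 0.00535; rho = -0.38, permutation p = 0.00867; q = 0.0772; -0.40 without the 2 farthest), and the call was lost without the strains that have a library under 3000000 counts (r = -0.37, q = 0.127). These signs rest on the scaling, since TPM without TMM gave 0.584 for *Pik3c2a* and *Pik3c2b* (q = 2.74e-05) and 0.08 for *Pik3c2b* and *Pik3c2g*. No pair was resolved in liver (r between -0.06 and -0.003, q at least 0.963) or in kidney, where *Pik3c2a* and *Pik3c2b* gave -0.24 (permutation p = 0.101; rho = -0.28, permutation p = 0.0565; q = 0.367). Kidney *Pik3c2g* gave r between -0.12 and 0.234 with its paralogs within clusters (q at least 0.597).

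Genes whose levels over the 47 strains were most like each isoform were found by Spearman's rho among all genes past the filter, as a description with no test. For *Pik3c2a* they were *Tmem68* in liver (0.585), *Tmem126a* in lung (0.789) and *Arl6ip1* in kidney (0.661), which lies 1.78 Mb from *Pik3c2a* on chromosome 7. Values in lung were higher for many genes, since 5% of lung genes exceeded 0.563 in size with *Pik3c2a*, against 0.318 in liver and 0.406 in kidney. For *Pik3c2b* they were *Prss48* in liver (0.531), *Ltbp3*, which encodes a binding protein of latent TGF-beta, in lung (0.775), followed by the basement membrane gene *Hspg2* (0.759), and *Rela*, a subunit of NF-kappaB, in kidney (0.599). The lowest rho of *Pik3c2b* were those of *Ubxn8* in liver (-0.54) and *Tmem167b* in lung (-0.67). In kidney they were those of *Sar1b* (-0.64) and *Copb2* (-0.62), which encode coat components of transport vesicles. With *Pik3c2b*, 5% of genes exceeded 0.302 in size in liver, 0.438 in lung and 0.398 in kidney, where its median count was 42. For *Pik3c2g* the most similar genes were *Pyroxd1* in liver (0.548), 2.72 Mb away on chromosome 6, *1810010H24Rik* in lung (0.559) and *Dram2* in kidney (0.553). Kidney values for *Pik3c2g* mix levels within and between clusters, and *Dram2* gave 0.209 and 0.251 within the lower and upper cluster. In kidney, *Abt1* had the lowest rho (-0.56 over all strains, -0.44 in the lower and -0.38 in the upper cluster).

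Adjacent genes followed no common pattern. *Nucb2*, 60.9 kb from *Pik3c2a*, had a rho of 0.554 with it in kidney, above 99.77% of genes, of 0.365 in lung and of -0.26 in liver. The other neighbour, *Rps13*, gave 0.138 in liver, -0.02 in lung and 0.338 in kidney. *Ppp1r15b*, 22.5 kb from *Pik3c2b*, gave 0.02, -0.36 and 0.104 in liver, lung and kidney. *Rergl* and *Plcz1* beside *Pik3c2g* had medians of 0 TPM in liver and lung. In kidney *Rergl* had a median of 3.48 TPM and a rho of -0.33 with *Pik3c2g*, with 0.02 in the lower and 0.08 in the upper cluster.

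The tissue differences of the class II genes were set beside 58 other genes of phosphoinositide metabolism and endocytosis, of which 42 were tested. All 16 that were not tested have more than 1 named transcript, against 9 of the 42. Of the 42, 3 were called higher in liver and 7 higher in lung in that comparison, with a median log2 difference of 0.05 against -0.06 for all genes. Between liver and kidney, 1 was called higher in liver and 4 higher in kidney (median -0.05, against -0.003 for all genes). Between lung and kidney, 6 were called higher in lung and 5 higher in kidney (median -0.06 against 0.04). With TMM, these shares lie below the percentages of all genes given above. They moved with the scaling. On log2(TPM + 1), 25 of the 42 were called higher in lung than in liver and 18 higher in kidney than in liver. Of all 12127 genes, 6969 and 4200 were called there, so on that scale neither share of the list lies below that of all genes.

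Among class I catalytic subunits, *Pik3ca* (p110-alpha) and *Pik3cb* (p110-beta) were tested and not called in any pair. Median TPM of *Pik3ca* was 75.62 in lung, 50.93 in kidney and 17.76 in liver, and that of *Pik3c3*, the class III enzyme Vps34, was 45.22, 29.23 and 17.75. The order of tissues depended on the scaling. In the TMM-scaled fit *Pik3c3* was higher in liver, by 0.24 over lung and 0.30 over kidney on the log2 scale (limma-voom q = 5e-10 and 7.65e-14). *Pik3ca* stayed lower in liver there, by -0.55 against lung and -0.53 against kidney. All of these lay below the fold threshold. *Pik3c2a* had the highest TPM of the 8 catalytic PI3-kinase genes in 32 of 47 strains in liver, in 1 in lung and in 45 in kidney. The class II genes held a median of 41.8% of the TPM summed over these 8 in liver, 33.9% in lung and 46.01% in kidney. *Pik3cd* and *Pik3cg*, with 6 and 3 named transcripts, had at most a median of 0.53 TPM, so these shares carry the possible limit on genes with several transcripts.

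Of the 4 class I regulatory subunits tested, *Pik3r3* and *Pik3r5* were called higher in lung than in liver, *Pik3r3* also in kidney than in liver (-1.83, limma-voom q = 6.9e-49) and *Pik3r5* in lung than in kidney. *Pik3r3* (p55-gamma) is named here after its values were seen. *Pik3r5*, the p101 adaptor of p110-gamma, had 15.35 CPM in lung against 1.598 in liver and 1.3 in kidney (log2 difference -3.51 for liver minus lung and 3.81 for lung minus kidney, limma-voom q = 1.35e-47 and 1.2e-50). The 6 tested members of the class III complex and its partners gave 1 call toward liver against lung, *Nrbf2* (log2 difference 1.34, limma-voom q = 3.79e-53), and 1 toward liver against kidney, *Uvrag* (1.22, limma-voom q = 3.98e-44). Both act with *Becn1* in the Vps34 complexes of autophagy and endosomal traffic.

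Of 6 myotubularin phosphatases, which remove the 3-phosphate, *Mtmr7* was called higher in liver than in lung (log2 difference 1.40, limma-voom q = 3.61e-17) and higher in kidney than in lung (-1.22 for lung minus kidney, limma-voom q = 2.22e-14). Of 9 kinases at the 4 and 5 positions, 1 was called higher in liver and 3 higher in lung in that pair, 3 higher in kidney than in liver, and 3 higher in lung and 2 higher in kidney in the last pair. *Pip5k1b*, a phosphatidylinositol 4-phosphate 5-kinase, had 12.97 CPM in lung, 3.84 in kidney and 0.264 in liver, with a log2 difference of -5.63 for liver minus lung (limma-voom q = 3.29e-66) and -3.77 for liver minus kidney (limma-voom q = 1.21e-50). *Pi4ka*, the kinase that supplies phosphatidylinositol 4-phosphate at the plasma membrane, had 370.3 CPM in kidney against 72.1 in liver and 74.0 in lung (-2.24 for liver minus kidney and -2.20 for lung minus kidney, limma-voom q = 3.12e-59 and 7.89e-59). *Pip4k2c* was also higher in kidney than in lung (-1.53, limma-voom q = 3.26e-65). Of 11 tested endocytic partners, among them the clathrin genes *Cltb* and *Cltc*, 1 was called higher in lung and 2 higher in kidney between those tissues, and these were the calls of the list in the 3 pairs.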

How the data were processed

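Expression was measured by RNA-seq (ribosomal RNA depleted, RNA integrity of at least 7.0) in 141 libraries. Per the labels and the methods of the study, the authors filtered 50-base reads by quality and adapter content and used RSEM with STAR 2.5.3a on genomes and RefSeq transcriptomes made for each strain from Build37 (mm9). For every gene, the deposited values are an expected count, a TPM, an FPKM and a transcript length. Lengths are weighted over transcripts. The version of RSEM is not given in the sources used here. No batch is among the labels, so the batch covariate of the study was left out. The members and gene lists were chosen with earlier results of these data known.

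Groups were taken from the tissue in the labels, and strains pair the libraries because 1 mouse gave all 3 tissues. Libraries of the same mouse deviated together (median r 0.167 to 0.212 by tissue pair, against -0.006 to -0.005 for different strains). Expected counts were rounded. A gene entered the fit when 30% of libraries or more exceeded 1 CPM (12127 genes), and tissues were compared with limma-voom (limma 3.58.1, edgeR 4.0.16, R 4.3.3) after TMM scaling, with strain and tissue as covariates. The fit recovered 100 of 100 genes changed 4-fold in simulated counts for liver against lung (12127 genes), with 0 false calls. Besides these, 100 genes changed 2-fold there, with no strain effect and the same dispersion for every gene. The simulation therefore cannot test the scaling between tissues, where far more genes differed. Correlations used rank inverse normal values (offset 0.375) of TPM that was TMM-normalized within each tissue. Their q came from the t distribution of r, with all genes past a filter of TPM over 1 in more than 50% of a tissue's libraries. The filter also asked for more than 1 strain in the smaller of the best pair of clusters on TMM-normalized TPM. Permutations numbered 100000. A whole-number length was one within 0.005 bases, and lengths held by at least 3 strains entered the shares. Motifs were counted on both strands of RefSeq promoter windows on GRCm38.p6, in which all 3 genes were matched. Precision is limited by counts. The median count per library was 1500 to 1800 for *Pik3c2a* in lung and kidney, and 33 for *Pik3c2g* in lung. Counting error made up 25.9% of the variance of log TPM for *Pik3c2b* in kidney, 12.75% in liver, 12.5% for *Pik3c2g* in lung and at most 4.56% elsewhere. It covers counting error only. The variance is that of TPM without TMM, and the share was not computed for the TMM-normalized values used for correlations, clusters and lengths, where it may be larger.

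Named genes are the 3 members, their nearest neighbours, the genes most and least like each by rho, the 2 called genes of the phosphoinositide lists with the largest change per pair and direction, and markers. Results of some genes of these lists are not reported here. Alternatives were DESeq2 1.42.0 size factors and its Wald test, edgeR's quasi-likelihood test, no low-count filter, no strain block, 2 tissues only, a limma fit of log2(TPM + 1) or log2(TPM + 0.1), FPKM, other thresholds and leaving out strains with little depth. Scaling by total counts, and the comparison by transcript length with its alternatives, were added after seeing the data. Genotypes and chromatin accessibility were not analysed here. Other tools were matplotlib 3.10.9, numba 0.67.0, pandas 2.3.3, scipy 1.17.1 and numpy 2.4.6 under Python 3.11.15.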

Additional observations from a re-analysis of the deposited data

How the results depend on the processing

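Of 376 recomputed values, 320 kept their call, or moved by less than the spread or 1.5 times. A value called neither in the main fit nor in the alternative counted as kept, however far it moved. Thus *Pik3c2b* for liver minus kidney, at -0.02 on total counts, and the -0.18 given next for *Pik3c2a* counted as kept. The stricter q threshold left the fold changes themselves as they were. Scaling changed most of the others. For *Pik3c2a*, liver minus lung became -0.18 with DESeq2 size factors, -1.32 on total counts without TMM, -1.39 on log2(TPM + 1) and -1.43 on log2(TPM + 0.1), and liver minus kidney passed the fold threshold with -1.63, -1.61 and -1.65. Without the replicate block, liver minus kidney of *Pik3c2g* was 1.66 and passed, and the block changed no other call of the members. All genes called for liver against lung numbered 1186 (total counts), 1004 (log2(TPM + 1)) and 1104 (log2(TPM + 0.1)) toward liver and 7474, 6969 and 7799 toward lung, with 6984 toward liver without the low-count filter. For liver against kidney they numbered 981, 820 and 959 toward liver and 5795, 4200 and 5696 toward kidney, and 1554 toward kidney against lung on log2(TPM + 1). The main counts were 2901, 3763, 1891, 2521 and 2502 in this order. Phosphoinositide genes on log2(TPM + 1) and total counts numbered 0 and 0 toward liver and 25 and 27 toward lung, 0 and 0 toward liver and 18 and 20 toward kidney, and 11 and 11 toward lung and 1 and 2 toward kidney. At an unadjusted p under 0.05, limma on log2(TPM + 1) had 0 of the 42 higher in liver than in lung. It had 1 higher in liver than in kidney, and limma-voom on total counts had 0 and 0. With TMM, edgeR's quasi-likelihood test had 19 and 17 at that unadjusted threshold. At the q and fold thresholds it called 3 and 1.

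On TPM without TMM, the upper-cluster r of *Pik3c2g* between liver and kidney fell to 0.366. The r of *Pik3c2a* and *Pik3c2b* became 0.291 in liver, 0.584 in lung and 0.326 in kidney, that of *Pik3c2a* and *Pik3c2g* 0.384 in liver, 0.431 in lung and 0.632 in the upper kidney cluster, and that of *Pik3c2b* and *Pik3c2g* 0.357, 0.0811 and 0.393. Without strains with a library under 3000000 counts, *Pik3c2b* and *Pik3c2g* in lung gave -0.374 and no longer passed. The 2-cluster share of kidney *Pik3c2g* was 90.5% on log2(TPM + 0.1), 79.7% on linear TPM, just under the threshold, and 89.0% without TMM. Without TMM, the shares of *Pik3c2a* were 61.3% in liver and 73.2% in lung, that of *Pik3c2g* 76.1% in liver and that of *Pik3c2b* 65.3% in lung, and *Pik3c2g* in lung gave 58.7% on linear TPM. Of the shares between transcript lengths, that of *Pik3c2a* in kidney was 18.05% without TMM, that of *Pik3c2b* in liver 13.6% without TMM, that of *Pik3c2g* in lung 10.4% without the strains of little depth, and that of *Pik3c2g* in liver 15.1% without them and 13.5% with lengths held by at least 5 strains. Beyond the scaling itself, the cause of these changes was not tested. Depth limits the kidney values of *Pik3c2g* in the lower cluster and the lung values of the same gene, which rest on few counts.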
